A study of Homo sapiens with 8 samples.

Results

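The genes that open the G1 phase of the cell cycle were followed in the RNA-seq libraries of 2 human bladder cancer cell lines. The set holds 10 of the 27475 human genes in the expression table, picked by gene symbol: the D cyclins CCND1 and CCND3, the kinases CDK4 and CDK6, the inhibitors CDKN2A, CDKN2B, CDKN1A and CDKN1B, the retinoblastoma gene RB1, and MTAP, the neighbour of CDKN2A. The lines, RT112 and UM-UC-3, received 100 pmol of siRNA with INTERFERin, a transfection reagent, for 72 h. The siRNA was a mix of 3 that target PAI-1 (siPAI-1) or a mix of 3 scrambled ones (Scr, siControl in the titles). The 4 groups are RT112 Scr, RT112 siPAI-1, UM-UC-3 Scr and UM-UC-3 siPAI-1, with 2 libraries each. All 8 libraries thus come from transfected cells, no untreated cells were measured, and the labels name 2 culture media without tying a line to its medium. The comparisons asked how the G1 genes differ between the lines, genes silent in a line included, and whether siPAI-1 moved them within each line. Levels are given in TPM, in which reads are divided by gene length and every library is scaled to the same sum of transcripts, so that levels of different genes can be compared.

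Cells leave G1 when a D cyclin binds CDK4 or CDK6 and the active kinase phosphorylates the RB1 protein, which otherwise holds back the E2F transcription factors and with them the genes of DNA replication. The INK4 proteins, among them p16 from CDKN2A and p15 from CDKN2B, bind CDK4 and CDK6 and block them. CDKN2A also encodes ARF from another first exon, an inhibitor of the ubiquitin ligase MDM2. The CIP/KIP proteins p21 (CDKN1A) and p27 (CDKN1B) inhibit the kinase of cyclin E and CDK2. MTAP is a metabolic enzyme that salvages methionine from the by-product of polyamine synthesis, and it lies beside CDKN2A and CDKN2B at 9p21, a region that bladder tumours often lose.

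Depth was estimated at 29.3 to 34.2 M reads per library, and between 16157 and 16663 genes were above 0. Of 15 markers of bladder epithelium, 13 were at 1 TPM or more in all 4 RT112 libraries, with a sum of 16700 to 17900 TPM. In UM-UC-3 4 of the 15 were, with a sum of 228 to 251 TPM, and EPCAM, CDH1, TP63 and UPK2 stayed below 1 TPM there, while KRT7, KRT8, KRT18 and PPARG were at 1 TPM or more in all its libraries. Markers of leukocytes summed to at most 0.63 TPM in any library and those of endothelium to at most 0.66 TPM in UM-UC-3 and 2.35 TPM in RT112. Fibroblast and muscle markers summed to 10.4 to 13.7 TPM in UM-UC-3 and to 29.1 to 37.6 TPM in RT112, with 2 and 3 of 6 at 1 TPM or more in all libraries of the line, and their part in the results was not tested. The library RT112 siPAI-1 replicate 1 was the one farthest from the other 3 of its line for 33.8% of 12801 genes, against 20.4% to 23.4% for those 3, and for 5 of the 7 G1 genes above 0. For the 7 genes, log2 folds that use it are therefore also given without it, or as a range over fits with 1 library left out. The counts over gene lists and neighbours in siPAI-1 include it.

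Of the 10 genes, CDKN2A, CDKN2B and MTAP were listed at 0 TPM, and at 0 in the FPKM table too, in all 4 RT112 and all 4 UM-UC-3 libraries. The sequences just before their starts are shown base by base, since transcription of these genes would begin right after them, in a stretch listed at 0. They are the 250 bases upstream of each RefSeq start in GRCh38.p14, written 5′ to 3′ on the strand of the gene, with the GC box GGGCGG (or CCGCCC, the same box on the other strand) in capitals. The outer CDKN2A start, at chr9:21995325-21995574 on the minus strand, is that of the ARF transcript, and the inner one, at chr9:21974858-21975107 on the minus strand, that of the p16 transcript. The CDKN2B window lies at chr9:22009306-22009555 on the minus strand and the MTAP window at chr9:21802386-21802635 on the plus strand. The CDKN2B window reaches a few bases into the gene span given below, so its start lies inside that span.
CDKN2A, outer start: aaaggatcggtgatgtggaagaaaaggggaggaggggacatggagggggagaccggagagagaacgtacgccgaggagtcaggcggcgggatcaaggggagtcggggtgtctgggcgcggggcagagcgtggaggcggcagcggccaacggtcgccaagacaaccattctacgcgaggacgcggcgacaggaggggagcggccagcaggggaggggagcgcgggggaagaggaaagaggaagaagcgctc
CDKN2A, inner start: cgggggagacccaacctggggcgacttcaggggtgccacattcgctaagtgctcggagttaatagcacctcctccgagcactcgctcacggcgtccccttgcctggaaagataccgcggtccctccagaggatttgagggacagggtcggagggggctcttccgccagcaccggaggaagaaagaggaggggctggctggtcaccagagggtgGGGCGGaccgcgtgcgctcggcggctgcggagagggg
CDKN2B: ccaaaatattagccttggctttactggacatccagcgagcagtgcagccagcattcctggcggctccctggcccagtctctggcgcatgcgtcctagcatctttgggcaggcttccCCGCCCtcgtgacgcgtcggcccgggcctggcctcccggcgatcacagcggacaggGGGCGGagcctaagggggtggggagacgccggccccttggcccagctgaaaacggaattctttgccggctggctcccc
MTAP: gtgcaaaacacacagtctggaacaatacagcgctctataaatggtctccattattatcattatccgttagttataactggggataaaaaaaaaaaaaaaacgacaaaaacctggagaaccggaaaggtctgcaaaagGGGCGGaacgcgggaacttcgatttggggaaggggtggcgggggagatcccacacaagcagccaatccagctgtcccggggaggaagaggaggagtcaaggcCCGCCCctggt
The box was found 0 times before the outer and 1 time before the inner CDKN2A start, and 2 times each before CDKN2B and MTAP. Of 35114 windows of the same length, 42.6% hold it at least once. CpG dinucleotides number 24 and 20 before the CDKN2A starts, 18 before CDKN2B and 11 before MTAP, where the median window has 11. The motifs are letters only, and no factor was measured on them.

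In annotation GRCh38.p14, MTAP spans 21802636 to 21941115, CDKN2A 21967752 to 21995324 and CDKN2B 22002903 to 22009313 of chromosome 9. A count of 3 reads, the limit that a count of 0 allows, would have given about 0.171 to 0.202 TPM for CDKN2A, 0.0931 to 0.11 TPM for MTAP and 0.0436 to 0.0515 TPM for CDKN2B, depending on the library. These limits cover counting error only and use the estimated depth and the median length of the coding transcripts. Among protein coding genes in general, 12.9% were at 0 in all 8 libraries, so a 0 by itself is not rare. An entry of 0 can also be a failed estimate. None of 20 widely used genes, chosen after the data were seen, was at 0 in any library. Their lowest value was 25.76 TPM, so they cannot tell whether the estimate failed for these 3 genes. RNA cannot tell a lost gene from a silent one, and the cause of the zeros was not tested.

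The zeros extended beyond the 3 genes on both sides. Going towards lower coordinates from CDKN2A, the nearest gene with at least 1 TPM in every library was KLHL9, a subunit of a ubiquitin ligase, 0.632 Mb away with 11.87 to 17.13 TPM. Towards higher coordinates it was TUSC1, 3.682 Mb away with 12.76 to 19.36 TPM. Between them the table has 14 genes over 4.34 Mb, CDKN2A, CDKN2B and MTAP included, and 11 of the 14 were at 0 in all 8 libraries. Of all genes, 26.2% were. The 2 ends were picked for their level and the 3 members are among the 11, so a high share of zeros was built in. It cannot be compared with the share over all genes. Among the 11 were the interferon genes IFNA1, IFNA2, IFNA6, IFNA8 and IFNA13. Interferon genes on the far side of KLHL9, such as IFNB1 and IFNA14, were at 0 too, so the zeros did not end at KLHL9. CDKN2B-AS1 and MIR31HG matched no entry and are not in these counts. ELAVL2, 1.695 Mb away, was above 0 in every library, at 0.87 to 7.59 TPM. The other two above 0 were IZUMO3, with at most 0.58 TPM and 0 in RT112, and IFNE, with at most 0.03 TPM.

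Within 1 Mb of the trio the table has 22 other genes, and 17 of them were at 0 in all 8 libraries, where 26.2% of all genes were. Among the 17 were CDKN2A-AS1, DMRTA1, LINC01239 and most of the type I interferon genes, which are silent in most resting cells. The 5 others were FOCAD, HACD4, IFNA5, IFNE and KLHL9. FOCAD, at the far end of the window, had 20.58 and 19.90 TPM in UM-UC-3 Scr against 12.78 and 13.62 TPM in RT112 Scr, a log2 fold of -0.61 for RT112 (limma adjusted p = 0.00813), and in siPAI-1 it was -0.53 and not called (adjusted p = 0.0787). KLHL9 had 17.13 and 15.52 TPM in UM-UC-3 Scr and 12.68 and 11.87 TPM in RT112 Scr, a log2 fold of -0.41 (adjusted p = 0.0395 with limma). HACD4 stayed at or below 0.10 TPM, and IFNA5 had 0.05 TPM in a single RT112 Scr library. The trio and most of its neighbours were thus at 0 in both lines, with the flanking genes present in both.

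**Figure D1:**
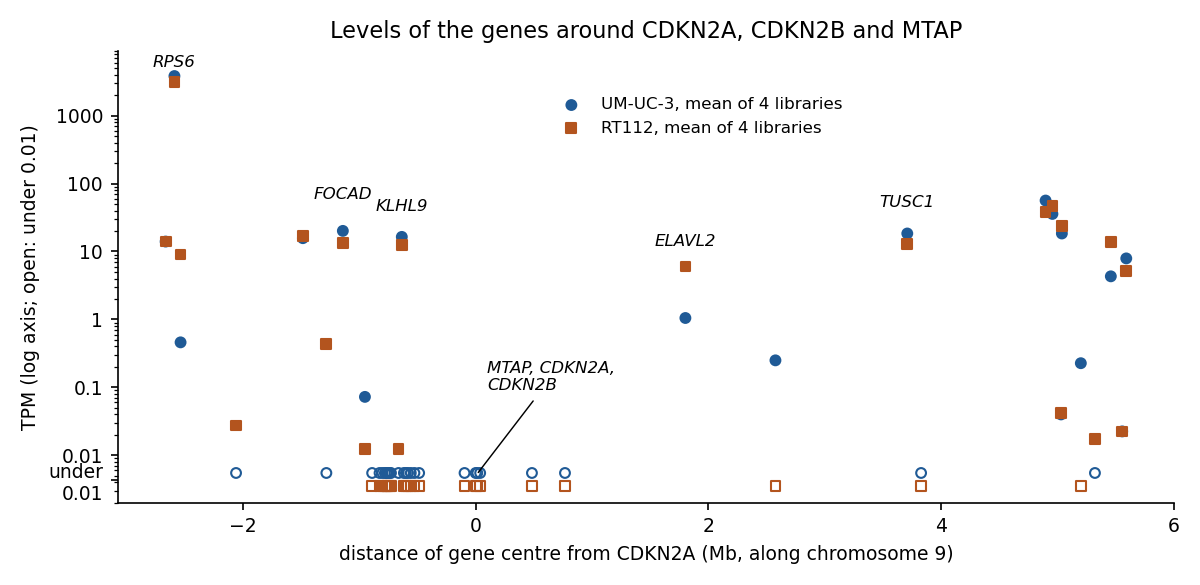
Mean TPM over the 4 libraries of each cell line (log axis) for the genes of the table around CDKN2A, against the distance of the gene's centre from CDKN2A in Mb. Circles are UM-UC-3 and squares RT112, and open symbols at the bottom mark means under 0.01 TPM. The open symbols fill the stretch around MTAP, CDKN2A and CDKN2B, and the nearest genes with at least 1 TPM in every library are KLHL9 at 0.632 Mb and TUSC1 at 3.682 Mb.

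The enzymes that act around MTAP in methionine salvage were present in both lines. MRI1, which takes up the product of MTAP, lay between 21.87 and 25.18 TPM over the UM-UC-3 libraries and between 12.88 and 16.99 TPM over the RT112 libraries. APIP, the next enzyme, had 40.28 to 41.78 TPM and 46.01 to 58.44 TPM. ENOPH1 had 30.56 to 36.30 TPM and 44.22 to 47.10 TPM, and ADI1, the last of the 4 enzymes listed, 44.26 to 48.97 TPM and 48.60 to 54.42 TPM. The pathway thus lacked reads at its first enzyme and had them at the other 4. PRMT5, an arginine methyltransferase that the substrate of MTAP inhibits, had 119.62 to 138.71 TPM in UM-UC-3 and 148.76 to 179.90 TPM in RT112, and a log2 fold of 0.43 in Scr (limma adjusted p = 0.0233). Its means were 124.9 TPM in UM-UC-3 Scr and 168.2 TPM in RT112 Scr. In siPAI-1 they lay closer together, at 134.4 TPM in UM-UC-3 and 152.9 TPM in RT112.

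Of the other 11 genes of the list on methionine salvage and polyamines, 4 were higher and 5 lower in RT112 Scr than in UM-UC-3 Scr, where 25.3% of 19201 tested genes were called higher and 26.3% lower. The smallest p belonged to MAT2A, which makes S-adenosylmethionine, with 290.62 and 256.77 TPM in UM-UC-3 Scr and 130.96 and 130.55 TPM in RT112 Scr (log2 fold -1.06, SE 0.076, limma adjusted p = 0.00122). SRM, spermidine synthase, followed with a log2 fold of -0.82 (adjusted p = 0.00156). SAT1, which breaks polyamines down, was higher in RT112 by a log2 fold of 0.95 (adjusted p = 0.00177). In the siPAI-1 libraries 3 of the 11 were higher and 5 lower in RT112.

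The remaining 7 genes were above 0 in every library, and they ranked differently in the 2 lines. In UM-UC-3 the order of the mean level in Scr was CCND1 (373.9 TPM), CDK4 (369.7 TPM), CDKN1B (67.96 TPM), CDKN1A (42.36 TPM), RB1 (38.46 TPM), CCND3 (21.52 TPM) and CDK6 (17.12 TPM). The libraries of CCND1 and CDK4 overlapped, as did those of CDKN1A and RB1, and the lower CCND3 library was just above the higher CDK6 library. In RT112 the order was CDK4 (249.9 TPM), CCND1 (173.2 TPM), CCND3 (101.7 TPM), CDKN1A (90.44 TPM), RB1 (32.75 TPM), CDKN1B (25.12 TPM) and CDK6 (16.07 TPM), with no overlap between neighbours in the libraries. CDK6 was therefore the lowest and CDK4 or CCND1 the highest in both lines, whereas CCND3 and CDKN1B exchanged places.

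**Figure D2:**
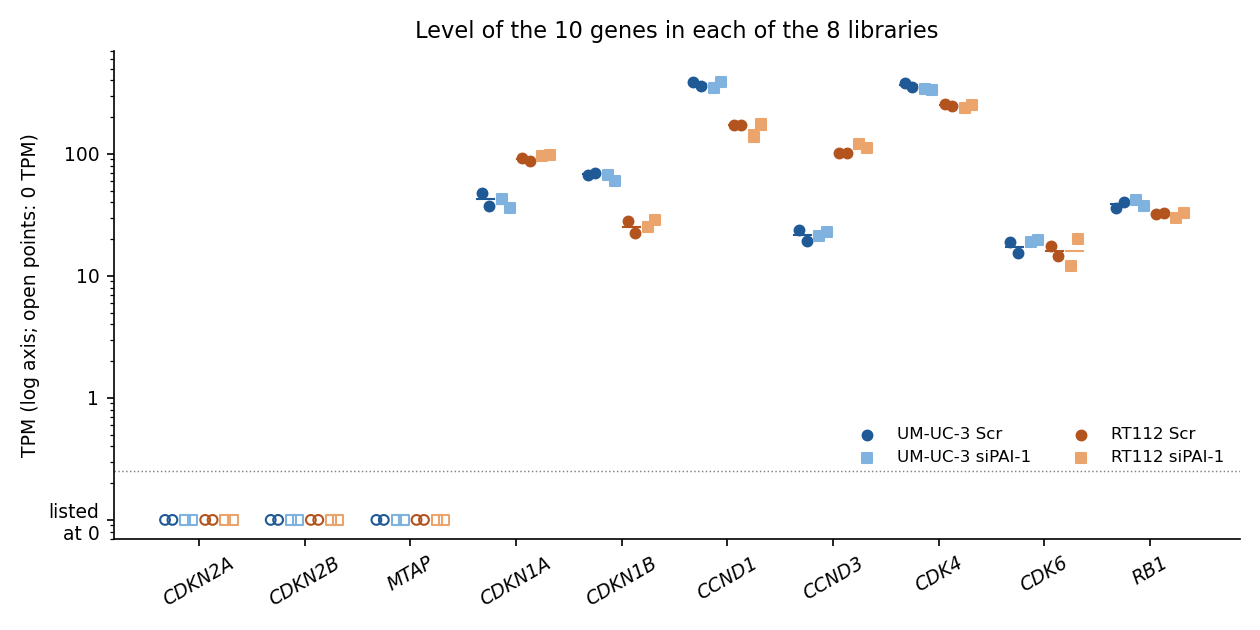
TPM of the 10 genes in each of the 8 libraries (log axis), with UM-UC-3 in blue and RT112 in orange, Scr as circles and siPAI-1 as squares, and a short line at the mean of each pair. Open symbols below the dotted line mark CDKN2A, CDKN2B and MTAP, listed at 0 in all libraries. CCND3 and CDKN1A sit higher in RT112, CCND1, CDKN1B and CDK4 sit higher in UM-UC-3, and the Scr and siPAI-1 points of a line lie close together.

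Between the lines, limma called 2 of the 7 higher and 3 lower in RT112 Scr than in UM-UC-3 Scr, with the threshold at an adjusted p of 0.05 over all 19201 genes tested. Among all genes 25.3% were called higher, 26.3% lower and 51.6% either way, so that a call by itself does not set the 7 genes apart. All such shares, here and elsewhere, count every gene above 0 TPM in any library fitted, genes near 0 included. Shares among genes of like level are not given. In the siPAI-1 libraries, which share no library with the Scr ones, 2 were higher and 4 lower, where 26.2% of 19359 genes were called higher, 26.1% lower and 52.2% either way. At an unadjusted p under 0.05 limma gave 5 of the 7 in Scr and 6 of the 7 in siPAI-1, against 57.4% and 58.1% of all genes. The 2 groups of libraries did not overlap for 6 of the 7 genes in either comparison, where 72.3% and 73.7% of all tested genes did not overlap. The median size of the log2 fold over the 7 genes was 1.10 in Scr and 1.23 in siPAI-1, against 0.74 over all genes in both. In bulk RNA, fewer cells that express a gene and less RNA per cell cannot be told apart.

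CCND3, cyclin D3, differed most. Its level was 23.78 and 19.25 TPM in UM-UC-3 Scr and 101.09 and 102.26 TPM in RT112 Scr, and 21.12 and 22.77 TPM in UM-UC-3 siPAI-1 and 120.11 and 112.14 TPM in RT112 siPAI-1. Every RT112 library was above every UM-UC-3 library. RT112 was 4.73-fold higher in Scr (log2 fold 2.24, SE 0.12, limma adjusted p = 0.00074) and 5.27-fold higher in siPAI-1 (log2 fold 2.40, SE 0.076, limma adjusted p = 0.000363). CCND3 was the member that kept its call between the lines in both treatments whichever library was left out. In siPAI-1 its log2 fold ran from 2.34 to 2.45 with any 1 library left out. CCND3 lies at 41934933 to 42050035 of chromosome 6.

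CCND1, cyclin D1, went the other way. It had 389.43 and 358.29 TPM in UM-UC-3 Scr and 173.27 and 173.12 TPM in RT112 Scr, and after siPAI-1 UM-UC-3 had 346.57 and 388.16 TPM where RT112 had 137.55 and 174.82 TPM. The RT112 libraries were all below the UM-UC-3 libraries, and the lowest was RT112 siPAI-1 replicate 1. UM-UC-3 was 2.16-fold higher in Scr (log2 fold -1.11 for RT112, SE 0.058, limma adjusted p = 0.000697) and 2.36-fold higher in siPAI-1 (log2 fold -1.24, SE 0.14, limma adjusted p = 0.00384). Without RT112 siPAI-1 replicate 1 the log2 fold in siPAI-1 was -1.07 and the adjusted p 0.0533 with limma, and with replicate 1 or 2 of UM-UC-3 siPAI-1 left out the adjusted p was 0.0947 or 0.108, so the siPAI-1 call was lost there. The Scr call was kept without any 1 library. CCND1 lies at 69641156 to 69654474 of chromosome 11.

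The third D cyclin, CCND2, is not among the 10 genes but completes the family. It had 16.72 and 14.69 TPM in UM-UC-3 Scr and 0.01 and 0.01 TPM in RT112 Scr, and 16.72 and 16.04 TPM against 0 and 0.03 TPM in siPAI-1, so RT112 carried next to none (limma adjusted p = 0.000396 in Scr and 0.000471 in siPAI-1). Of the summed D cyclin TPM, CCND1 made up 90.6% and 91.3% in UM-UC-3 Scr and 63.2% and 62.9% in RT112 Scr. The CCND3 share was 5.53% and 4.91% in UM-UC-3 Scr and 36.8% and 37.1% in RT112 Scr. The RT112 cells thus had a mixed pool of cyclin D1 and D3 messages, and the UM-UC-3 cells mostly cyclin D1. The sum itself was 430 and 392 TPM in UM-UC-3 Scr and 274 and 275 TPM in RT112 Scr. In RT112 siPAI-1 the CCND3 share was 46.6% in replicate 1 and 39.1% in replicate 2.

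CDK4, the main D cyclin kinase by level, had 383.82 and 355.56 TPM in UM-UC-3 Scr and 255.27 and 244.45 TPM in RT112 Scr, and 342.69 and 330.77 TPM against 235.99 and 250.91 TPM in siPAI-1. No RT112 library reached a UM-UC-3 library. The difference was smaller than for the cyclins, at 1.48-fold in Scr (log2 fold -0.56, SE 0.059, limma adjusted p = 0.00312) and 1.38-fold in siPAI-1 (log2 fold -0.47, SE 0.052, limma adjusted p = 0.00364). The Scr call was lost without RT112 Scr replicate 1 or 2 (adjusted p = 0.0688 and 0.0779 with limma), and the siPAI-1 call with replicate 1 or 2 of UM-UC-3 siPAI-1 left out (adjusted p = 0.0783 and 0.0703 with limma), with log2 folds of -0.60, -0.53, -0.44 and -0.49. Without RT112 siPAI-1 replicate 1 the log2 fold in siPAI-1 was -0.42 (limma adjusted p = 0.0449). CDK4 lies at 57747727 to 57752310 of chromosome 12 and overlaps TSPAN31 on the annotation. TSPAN31 was higher in RT112, with 19.32 and 20.95 TPM against 9.64 and 7.33 TPM in Scr, and since the strand setting of the counting is not given in the sources used here, reads in the overlap cannot be assigned with certainty.

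CDK6, the partner kinase, had 18.89 and 15.35 TPM in UM-UC-3 Scr, 17.51 and 14.62 TPM in RT112 Scr, 18.95 and 19.73 TPM in UM-UC-3 siPAI-1, and 11.94 and 19.91 TPM in RT112 siPAI-1. The lines overlapped in both treatments. The log2 fold was -0.09 in Scr (95% interval -0.54 to 0.36, limma adjusted p = 0.672), so a difference of that size in either direction was not detectable here. In siPAI-1 it was -0.32 (adjusted p = 0.375), and the 2 RT112 siPAI-1 libraries alone differed 1.67-fold. Without replicate 1 of these it was 0.04, and without replicate 2 it was -0.69 with an adjusted p of 0.0388 from limma, so that 1 library decides the value. CDK6 made up 4.14% to 5.63% of the CDK4 and CDK6 sum in UM-UC-3 and 4.82% to 7.35% in RT112. It lies at 92604921 to 92836573 of chromosome 7.

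With CDKN2A and CDKN2B at 0, the INK4 message came from the other 2 genes of the family, CDKN2C (p18) and CDKN2D (p19). CDKN2C had 56.07 and 52.53 TPM in UM-UC-3 Scr and 11.52 and 9.88 TPM in RT112 Scr, 5.05-fold higher in UM-UC-3 (log2 fold -2.34, SE 0.11, limma adjusted p = 0.000582). CDKN2D had 8.04 and 6.27 TPM against 3.76 and 4.03 TPM, a log2 fold of -0.85 (adjusted p = 0.0255 with limma), a call that was absent in siPAI-1 (adjusted p = 0.439). The INK4 sum came to 15.9% of the CDK4 and CDK6 sum in both UM-UC-3 Scr libraries and to 5.60% and 5.37% in RT112 Scr. After siPAI-1 the UM-UC-3 libraries had 16.9% and 17% and the RT112 libraries 8.76% and 6.40%. Relative to the kinases, RT112 thus had fewer INK4 transcripts.

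**Figure D3:**
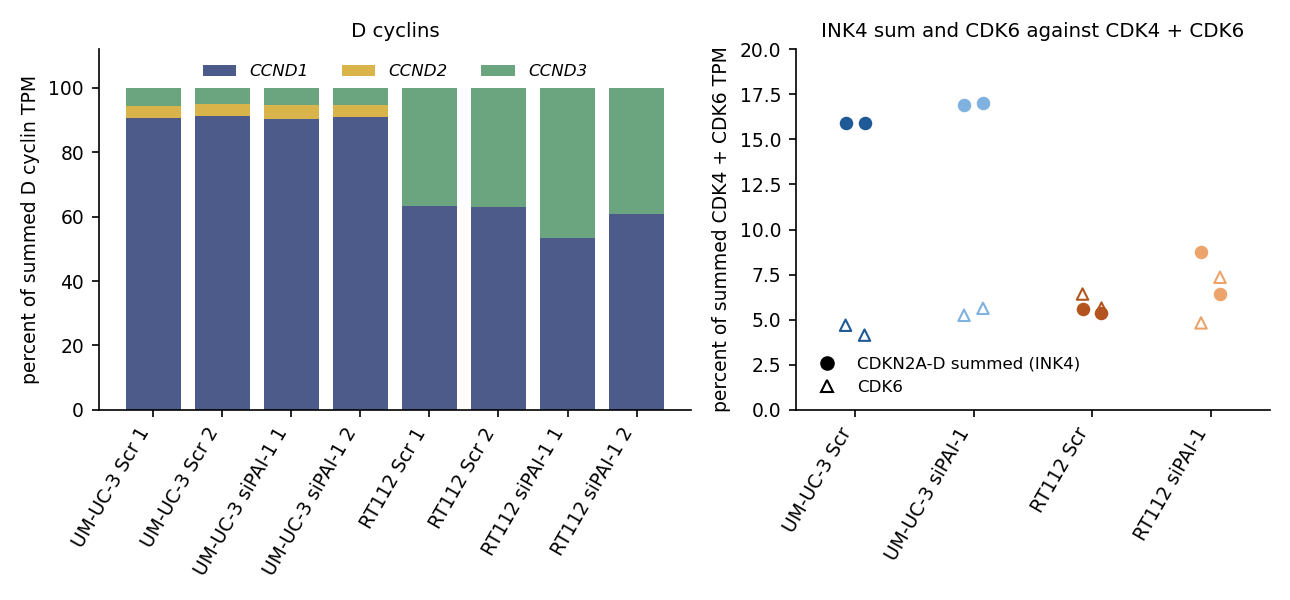
Left, the share of CCND1, CCND2 and CCND3 in the summed D cyclin TPM of each library, in percent. Right, the INK4 sum (filled circles, all from CDKN2C and CDKN2D) and CDK6 (open triangles) as a percent of the summed CDK4 and CDK6 TPM, 1 symbol per library and group. CCND1 takes 90.2% to 91.3% in UM-UC-3 and 53.4% to 63.2% in RT112, and the INK4 sum lies at 15.9% to 17% in UM-UC-3 and 5.37% to 8.76% in RT112, while the CDK6 triangles of the lines overlap.

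The 2 CIP/KIP inhibitors had opposite patterns. CDKN1A, p21, had 47.53 and 37.18 TPM in UM-UC-3 Scr and 92.87 and 88.00 TPM in RT112 Scr, and 42.36 and 35.69 TPM against 96.46 and 97.17 TPM in siPAI-1. All RT112 libraries were above all UM-UC-3 libraries. RT112 was 2.15-fold higher in Scr (log2 fold 1.10, SE 0.14, limma adjusted p = 0.00497) and 2.49-fold in siPAI-1 (log2 fold 1.31, SE 0.10, limma adjusted p = 0.00152). The call needed both RT112 libraries, since the adjusted p was 0.121 and 0.112 without RT112 Scr replicate 1 or 2, with log2 folds of 1.06 and 1.14, and 0.0646 and 0.0662 without RT112 siPAI-1 replicate 1 or 2. With any 1 library left out, the log2 fold in siPAI-1 ran from 1.19 to 1.44. CDKN1A lies at 36676463 to 36687332 of chromosome 6.

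CDKN1B, p27, had 66.62 and 69.29 TPM in UM-UC-3 Scr and 27.96 and 22.27 TPM in RT112 Scr, and 66.53 and 59.42 TPM against 25.02 and 28.47 TPM in siPAI-1. UM-UC-3 was higher in every library. The difference was 2.72-fold in Scr (log2 fold -1.44, SE 0.13, limma adjusted p = 0.00218) and 2.35-fold in siPAI-1 (log2 fold -1.23, SE 0.11, limma adjusted p = 0.00193). Without UM-UC-3 Scr replicate 1 or 2 the adjusted p in Scr was 0.0812 or 0.0853, and in siPAI-1 it was 0.0502 without RT112 siPAI-1 replicate 1 and 0.0615 or 0.0541 with replicate 1 or 2 of UM-UC-3 siPAI-1 left out, at log2 folds from -1.47 to -1.14 in these fits. The ratio of CDKN1A to CDKN1B was 0.713 and 0.537 in UM-UC-3 Scr and 3.32 and 3.95 in RT112 Scr, while their sum was 114 and 106 TPM in UM-UC-3 Scr and 121 and 110 TPM in RT112 Scr. The sums overlapped between the lines in Scr, with p27 ahead in UM-UC-3 and p21 ahead in RT112. In siPAI-1 they were 109 and 95.1 TPM in UM-UC-3, below the 121 and 126 TPM of RT112. CDKN1B lies at 12717368 to 12722369 of chromosome 12.

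RB1 was present in both lines, at means 1.17-fold apart in Scr and 1.26-fold in siPAI-1. It had 36.26 and 40.66 TPM in UM-UC-3 Scr and 32.43 and 33.07 TPM in RT112 Scr, and 41.49 and 37.10 TPM against 29.54 and 32.55 TPM in siPAI-1. The RT112 libraries were below the UM-UC-3 libraries in both treatments. In Scr the log2 fold was -0.23 (95% interval -0.47 to 0.01, adjusted p = 0.0967 from limma) and in siPAI-1 -0.34 (SE 0.098, limma adjusted p = 0.049). The latter call was lost without any 1 of the 4 libraries, with adjusted p from 0.129 to 0.237 by limma, the highest without RT112 siPAI-1 replicate 1 (log2 fold -0.27). RB1 lies at 48303751 to 48481890 of chromosome 13, and LPAR6, a receptor gene inside an RB1 intron, had 1.12 and 1.35 TPM in UM-UC-3 Scr and 0.02 and 0 TPM in RT112 Scr.

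**Figure D4:**
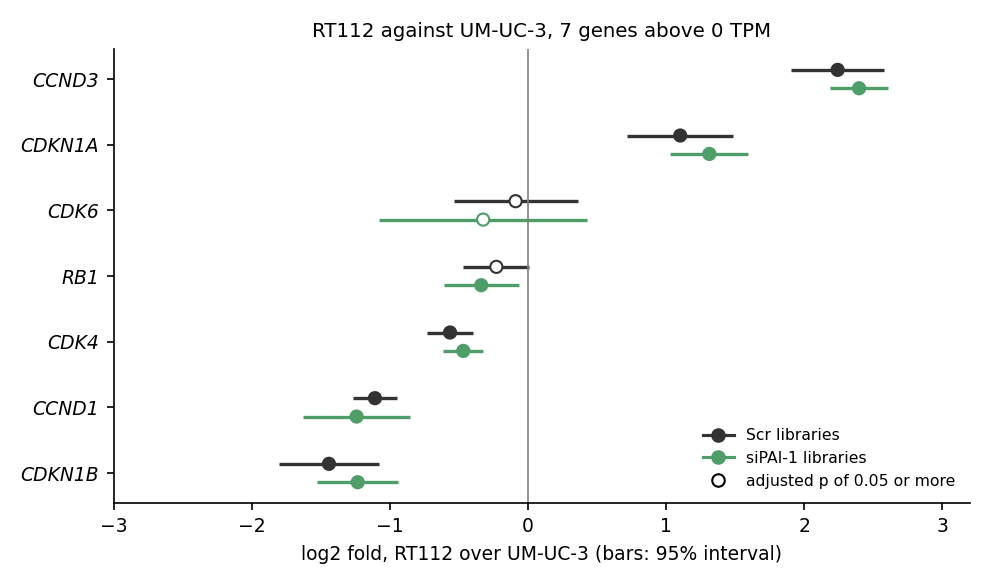
log2 fold of RT112 over UM-UC-3 for the 7 genes above 0 TPM, in the Scr (black) and the siPAI-1 libraries (green), with 95% intervals from limma. Filled points passed an adjusted p of 0.05 and open points did not. CCND3 and CDKN1A lie above 0, CDK4, CCND1 and CDKN1B below 0, and the intervals of CDK6 include 0 in both treatments.

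The other genes of the G1 machinery were read from a list of 20 partners, of which 5 were higher and 8 lower in RT112 Scr and 5 and 6 in siPAI-1, 65% and 55% called, where 51.6% and 52.2% of all genes were. CCND2, CDKN2C and RBL1 had the smallest p in Scr. RBL1 (p107, a relative of RB1) had 44.32 and 40.50 TPM in UM-UC-3 Scr and 22.82 and 21.80 TPM in RT112 Scr (log2 fold -0.92, SE 0.084, limma adjusted p = 0.00216), while RBL2 (p130) had 18.03 and 18.27 TPM against 17.66 and 18.49 TPM. CCNE1, cyclin E1, was 2.54-fold higher in RT112 Scr, with 41.62 and 45.31 TPM against 20.12 and 14.46 TPM (log2 fold 1.34, SE 0.19, limma adjusted p = 0.00648). SKP2, which targets p27 for degradation, had 57.91 and 52.78 TPM in RT112 Scr and 41.36 and 34.38 TPM in UM-UC-3 Scr (log2 fold 0.55, adjusted p = 0.023 from limma). Its cofactor CKS1B was also higher in RT112, by a log2 fold of 0.46 (adjusted p = 0.00237 from limma).

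Downstream of RB1, the list of 10 E2F and DP factors had 2 higher and 4 lower in RT112 Scr, and 4 and 5 in siPAI-1, 60% and 90% called beside 51.6% and 52.2% of all genes. TFDP2, a dimer partner of the E2F proteins, was the one furthest apart, with 39.30 and 32.14 TPM in UM-UC-3 Scr and 4.25 and 4.30 TPM in RT112 Scr (8.15-fold, log2 fold -3.03, limma adjusted p = 0.000556). E2F6 and E2F2 followed with log2 folds of -0.88 and -0.98 (adjusted p = 0.00823 and 0.00825 with limma). E2F1 had 52.77 and 49.39 TPM against 40.84 and 46.28 TPM, which did not pass in Scr (adjusted p = 0.11) and passed in siPAI-1 with a log2 fold of -0.22 (adjusted p = 0.0407, both from limma).

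The 20 E2F target genes did not move one way. In RT112 Scr 8 were higher and 6 lower, in siPAI-1 10 and 8, which is 70% and 90% called beside 51.6% and 52.2% of all genes, and their median log2 fold in Scr was 0.02, against -0.06 over all genes. Licensing factors were higher in RT112: CDC6 2.63-fold (adjusted p = 0.00164) and CDT1 2.69-fold (adjusted p = 0.00205), and GINS2, a subunit of the replicative helicase, 4.38-fold (adjusted p = 0.0012, all with limma). Subunits of the MCM helicase went both ways, since MCM2, MCM6 and MCM7 were lower by log2 folds of -0.88, -0.92 and -0.80 (adjusted p = 0.000911, 0.00115 and 0.00111 with limma) while MCM3 was higher by 0.29 (adjusted p = 0.0113 with limma). MCM5 had a mean of 233.2 TPM in UM-UC-3 Scr and 175.6 TPM in RT112 Scr. MCM4 went up, from 365.9 to 541.3 TPM, though its UM-UC-3 Scr libraries were far apart, at 428.70 and 303.17 TPM.

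Among 10 regulators that act on D cyclin transcription, 5 were higher and 3 lower in RT112 Scr, and 4 and 3 in siPAI-1, 80% and 70% called beside 51.6% and 52.2% of all genes. ETS2 had 123.01 and 122.46 TPM in RT112 Scr and 4.18 and 4.45 TPM in UM-UC-3 Scr (log2 fold 4.80, limma adjusted p = 0.000242). The AP-1 subunits FOSL1 and JUN, which act on the CCND1 promoter, were higher in UM-UC-3. FOSL1 had 304.81 and 300.47 TPM against 74.70 and 67.60 TPM (4.25-fold, limma adjusted p = 0.000342), and JUN 198.48 and 176.36 TPM against 75.43 and 70.32 TPM (2.57-fold, limma adjusted p = 0.000915). The AP-1 subunits FOS and JUNB were higher in RT112 instead, by log2 folds of 2.82 and 1.62 (adjusted p = 0.00229 and 0.00122 from limma).

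Genes near the 10 members were looked at for wider differences between the lines. Within 1 Mb the table has 217 other genes, 171 of them tested in Scr, of which 55% were called, close to the 51.6% of all genes. Around CDK4, 8 of 40 tested neighbours were higher and 18 lower in RT112 Scr, and within 0.5 Mb 2 were higher and 16 lower of 29, where 26.3% of all genes were lower. MARS (methionyl-tRNA synthetase, 231.1 kb from CDK4) had 189.12 and 183.73 TPM in UM-UC-3 Scr and 86.86 and 89.03 TPM in RT112 Scr (log2 fold -1.08, limma adjusted p = 0.000537). B4GALNT1 had 42.02 and 39.79 TPM against 2.01 and 1.28 TPM, and KIF5A 2.94 and 3.16 TPM against 0.01 and 0.01 TPM, and both passed (adjusted p = 0.000724 and 0.000873 with limma). In the siPAI-1 libraries 5 of the 29 were higher and 13 lower. DNA copy number was not measured in these libraries.

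Around CCND1, 8 of 18 tested neighbours were higher and 2 lower in RT112 Scr, where 25.3% of all genes were called higher and 26.3% lower, the shares beside which the counts around the other members stand too. MYEOV, 343.9 kb away, was higher by a log2 fold of 5.10, GAL by 7.62, and CPT1A was lower by -2.02 (adjusted p = 0.000307, 0.000546 and 0.000472 with limma). Around CCND3, 11 of 33 were higher and 6 lower, with C6orf132, MDFI and BYSL at log2 folds of 8.95, 7.65 and 0.75. Around CDKN1A, 13 of 29 were higher and 2 lower, led by MAPK13, PPIL1 and PIM1 with log2 folds of 8.35, 1.22 and 2.20. One-sided counts were thus not particular to CDK4: within 0.5 Mb of CDKN1A, 8 of 16 were higher and 0 lower in Scr, and 9 and 0 in siPAI-1. Around CDKN1B, 10 of 19 were higher and 2 lower, led by EMP1, GPRC5A and MANSC1 with 1.88, 2.21 and 3.19. In siPAI-1 10 of these 19 were higher and 4 lower. Within 0.5 Mb of CDKN1B, 8 of 15 were higher and 2 lower in Scr, and 7 and 3 in siPAI-1. Around CDK6, 5 of 15 were higher and 4 lower, with SAMD9 at 1.66, CYP51A1 at -0.53 and GATAD1 at 0.64. Around RB1, 2 of 12 were higher and 1 lower, namely CAB39L at 2.21, ITM2B at 0.22 and LPAR6 at -3.60. All these neighbours had a limma adjusted p of at most 0.0139 in Scr.

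Some genes followed a member closely over the 8 libraries, as read from the root mean square distance between their log2 profiles, each centred on its own mean, among 12800 other genes that averaged 1 TPM or more. With 2 lines and small changes within them, such profiles mainly share the difference between the lines. CDK4 had the closest matches, HNRNPL at a distance of 0.0202 and PPP6R1 at 0.0294. RB1 was followed by NSFL1C (0.0323) and SF3B5 (0.0454), CCND1 by ZNF281 (0.0512) and LMNB2 (0.0675), and CCND3 by CROT (0.0525) and GMDS (0.0764). CDKN1B was followed by ARRDC2 (0.0588) and TRNAU1AP (0.0624), and CDKN1A by GCC2 (0.0724) and the clone-named gene CH507-9B2.5 (0.0722), whose reads may be shared with copies. CDK6 had the most distant matches, MGA at 0.0922 and SERTAD3 at 0.1015.

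Knock-down of PAI-1 did not give a call for any of the 10 genes. In UM-UC-3 limma called 0 of the 7 at an adjusted p under 0.05, as it called 0% of 18528 genes, and in RT112 0 of 7, as it called 0% of 18437 genes. At an unadjusted p under 0.05 it gave 0 of 7 in UM-UC-3 and 1 of 7 in RT112, against 6.01% and 5.77% of all genes. The libraries did not overlap for 3 of 7 in UM-UC-3 and 2 of 7 in RT112, against 32.2% and 32.7% of all genes. The median size of the log2 fold over the 7 genes was 0.11 in UM-UC-3 and 0.10 in RT112, against 0.15 and 0.16 over all genes tested. Both comparisons use the Scr libraries of the line comparison above.

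The 1 gene was CCND3 in RT112, from 101.09 and 102.26 TPM in Scr to 120.11 and 112.14 TPM in siPAI-1, both above both Scr libraries. The log2 fold was 0.19 (95% interval 0.03 to 0.35), and limma gave an unadjusted p of 0.0294 that became 0.838 after adjustment. In UM-UC-3 the log2 fold of CCND3 was 0.04 with an interval from -0.30 to 0.37. Without RT112 siPAI-1 replicate 1 the log2 fold in RT112 was 0.14 (adjusted p = 0.563 with limma).

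The intervals show what size of change the libraries leave possible. For CDK4 the log2 fold was -0.13 in UM-UC-3 (interval -0.29 to 0.02) and -0.04 in RT112 (-0.19 to 0.12). For CCND1 the log2 folds were -0.03 in UM-UC-3 (interval -0.23 to 0.17) and -0.16 in RT112 (-0.48 to 0.17), the latter 0.01 without RT112 siPAI-1 replicate 1. RB1 was at 0.03 (-0.22 to 0.28) in UM-UC-3 and -0.08 (-0.31 to 0.15) in RT112. All these intervals stayed within 1 on the log2 scale, a 2-fold change. CDKN1A had log2 folds of -0.11 (-0.50 to 0.27) and 0.10 (-0.06 to 0.25), and CDKN1B -0.11 (-0.31 to 0.09) and 0.10 (-0.29 to 0.48). CDK6 was the least certain, at 0.18 in UM-UC-3 (-0.15 to 0.52) and -0.05 in RT112 (-0.78 to 0.67), and without RT112 siPAI-1 replicate 1 the latter was 0.31. Without that library the RT112 log2 folds were 0.10 for CDKN1A, 0.19 for CDKN1B, 0.01 for CDK4 and -0.01 for RB1, and 0 of the 7 were called.

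The effect of siPAI-1 was also compared between the lines in 1 fit over all 8 libraries. By limma the difference passed for 0 of the 7 genes and for 0% of 20274 genes, and at an unadjusted p under 0.05 limma gave 0 of 7 against 6.76% of all genes. The differences, RT112 minus UM-UC-3, ran from -0.24 for CDK6 to 0.21 for CDKN1A on the log2 scale, with intervals of -1.06 to 0.59 and -0.23 to 0.65, and without RT112 siPAI-1 replicate 1 they ran from -0.04 for RB1 to 0.30 for CDKN1B, with 0 of the 7 called. CDKN2A, CDKN2B and MTAP stayed at 0 after siPAI-1 in both lines. In the lists of partners, E2F factors, E2F targets, salvage enzymes and D cyclin regulators, limma likewise called 0 genes in either line. At an unadjusted p under 0.05 it gave 0 to 2 genes of each list within a line, where 6.01% of all genes had one in UM-UC-3 and 5.77% in RT112. It gave 3 of the 20 partners for the difference between the lines, where 6.76% of all genes had one, namely SKP2, CDKN2C and FBXW7 with differences of 0.41, 0.38 and -0.48 on the log2 scale (adjusted p = 0.689, 0.699 and 0.647 with limma).

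**Figure D5:**
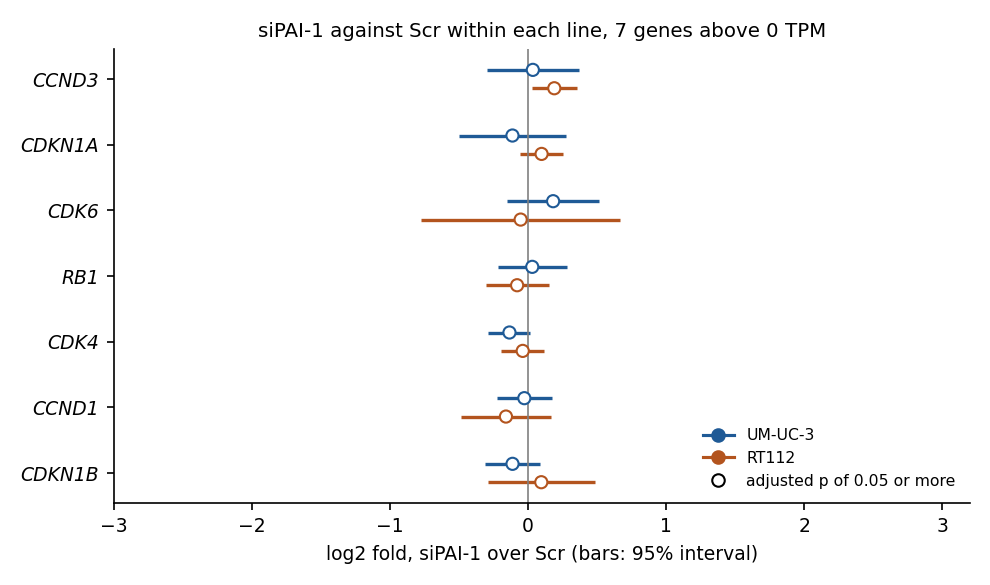
log2 fold of siPAI-1 over Scr for the 7 genes above 0 TPM in UM-UC-3 (blue) and RT112 (orange), with 95% intervals from limma, on the same horizontal range as the plot of the line comparison. All points are open, as none passed an adjusted p of 0.05, and all lie between -0.16 and 0.19. The interval of CCND3 in RT112, 0.03 to 0.35, is the only one that leaves out 0.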

How the data were processed

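RNA-seq libraries (stranded mRNA kit, single reads of 75 bases) were grouped by cell line and siRNA from the sample titles. The deposited values are TPM and FPKM for each gene with 2 decimals, from reads the authors aligned to GRCh38. The submitters' processing notes name STAR 2.5.0 and RSEM 1.2.25, whereas the methods name featureCounts and DESeq2. Counts were not used here, so a log-scale test took the place of DESeq2. The 92 spike-in entries, all at 0, were left out.

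Each comparison was fitted on its own 4 libraries, and the interaction on all 8, with limma 3.58.1 in R 4.3.3 (lmFit and eBayes with a trend) as a two-sided test of log2(TPM + 0.1), for genes above 0 TPM in any library fitted, with Benjamini-Hochberg adjustment over all of them and a threshold of 0.05. Folds of low genes are understated on this scale. Depth was estimated between 20 and 45 M reads from FPKM steps of short genes, and 2 times the depth would also give whole reads. Positions are those of RefSeq GRCh38.p14, matched by symbol for 21958 genes. Transcript lengths came from GENCODE 44. The methods speak of 3 independent knock-down experiments, while each group has 2 libraries here and the labels do not tie a library to an experiment, so p-values measure the spread between these libraries.

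The members and gene lists were chosen with earlier results of these data known. Named were all members, and up to 3 genes per list with the smallest p among those called between the lines in Scr. Other list genes, also those called in another comparison, were named only in part and picked after their values were seen. Among these were CCNE1, SKP2, CKS1B, CDC6, CDT1, GINS2, MCM3, MCM4, MCM5, FOS and JUNB. Called neighbours (at most 3 per member), genes above 0 around CDKN2A, CDKN2B and MTAP, and 2 profile matches per member were named too. TSPAN31, CDKN2D, RBL2, PRMT5, the 4 salvage enzymes after MTAP, the named marker genes and list genes that did not pass, or had only an unadjusted p under 0.05, were named after their values were seen. Some results are not reported here. Also tried were pseudocounts of 1 and 0.01 TPM, FPKM values, median ratio scaling, a mean of at least 1 TPM, no filter, 1 fit over 8 libraries, eBayes without trend, a replicate block, each library left out, and a window of 0.5 Mb.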

Additional observations from a re-analysis of the deposited data

How the results depend on the processing

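Of 718 recomputed values for 64 results, 651 kept direction and call, or moved less than the replicates' SD or the 1.5 times allowed for a count. With all libraries in, RB1 between the lines in siPAI-1 was the single member call that changed, with limma adjusted p = 0.0547 (pseudocount 0.01), 0.0581 (median ratio scaling), 0.122 (no filter), 0.114 (no trend) and 0.0839 (replicate block), its log2 fold staying near -0.34. Replicate numbers showed no pairing (correlation of deviations -0.043 to 0.044 over 12803 genes), and the replicate block altered no other member call.

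For siPAI-1 against Scr, limma called 1 gene in UM-UC-3 with a mean of at least 1 TPM and 29 with no filter, and in RT112 58 with no filter and 2 in the fit over 8 libraries, instead of 0. For the interaction it called 73 with no filter and 7 without trend. The cause was not tested, and 0 members were called in these fits.

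Leaving out 1 library, which leaves a lone library assumed to vary like the other group, gave 5698 to 6564 genes called in Scr (9909 with all) and 5294 to 7142 in siPAI-1 (10108 with all), and 0 to 123 for the interaction, at most without RT112 siPAI-1 replicate 2. Members called higher numbered 1 to 2 in either treatment. Those called lower numbered 2 in Scr, and in siPAI-1 0 to 4, the 0 arising with either UM-UC-3 siPAI-1 library left out. Log2 folds that changed sign were not called with all libraries in. Between the lines CDK6 ran from -0.238 to 0.0595 in Scr and from -0.691 to 0.042 in siPAI-1. After siPAI-1 in UM-UC-3, CCND1 ran from -0.108 to 0.0554, CCND3 from -0.116 to 0.187, CDKN1A from -0.289 to 0.0644 and RB1 from -0.0514 to 0.113. In RT112, CDK6 ran from -0.419 to 0.314, CCND1 from -0.332 to 0.0135, CDKN1B from -0.0668 to 0.26 and CDK4 from -0.082 to 0.0064. For the interaction, CDK6 ran from -0.602 to 0.131 and CCND1 from -0.306 to 0.0398. With 2 libraries per group, small changes were not detectable.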
